A study of Mus musculus with 11 samples.

Results

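Translation initiation and elongation factors are the proteins that bring messenger RNA, initiator tRNA and ribosome together and then move the ribosome along the message. The factors described here were taken from a table of RNA levels in regulatory T cells (Tregs) by symbol: every Eif or Eef symbol in which a digit follows the letters, with the eIF2 kinases (Eif2ak genes) left aside. This rule found 60 genes among the 10992 of the table. All 60 passed the filter for testing, which asked for 1 RPKM or more in 2 or more samples, and none had a value of 0 in any library. RPKM is a read count scaled by gene length and library size, so levels of different genes can be set side by side on it.

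The cells were live CD3+ CD4+ Foxp3+ T cells sorted from visceral adipose tissue (VAT), the fat around the abdominal organs, or from spleen of male mice aged 25 weeks. The mice were Foxp3-YFPcre Srebf2-WT/WT (WT) or Foxp3-YFPcre Srebf2-flox/flox (KO), so that WT and KO mice alike carried the Cre recombinase joined to a yellow fluorescent protein at Foxp3, and Srebf2 was open to deletion only in cells that had expressed Foxp3. Srebf2 encodes SREBP2, a transcription factor that switches on cholesterol synthesis when sterols are low. From VAT 3 WT and 3 KO libraries were used, and from spleen 2 of each genotype. The labels do not say that each came from a separate mouse, so the p-values rest on a spread between samples that may be only technical.

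In background terms, initiation starts when eIF2 loads initiator tRNA onto the small ribosomal subunit, with eIF1, eIF1A and eIF3 holding the subunit open, while the eIF4 factors bind the cap of the messenger RNA and unwind its leader. The start codon is recognised, eIF5 triggers GTP hydrolysis, and eIF5B joins the large subunit. In elongation eEF1A delivers each aminoacyl-tRNA, the eEF1B complex recharges eEF1A with GTP, and eEF2 moves the ribosome by a codon. Resting T cells are known for low rates of protein synthesis that rise on activation, with control through phosphorylation of eIF2 and of the eIF4E-binding proteins.

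The targeted gene was low in the KO libraries. Srebf2 was at 15.6 to 30.5 RPKM in VAT WT and 0.263 to 1.23 in VAT KO (log2 difference -3.67 ± 0.33 (SE), limma adjusted p = 0.00081), and at 10.5 and 23.2 RPKM in spleen WT against 2.59 and 1.59 in spleen KO (-2.45 ± 0.40, adjusted p = 0.244). All 8 Treg markers were in the table, with summed levels of 967.5 to 1218 RPKM. Foxp3 averaged 15.3 ± 0.53 RPKM in VAT WT and 15.2 ± 1.67 in VAT KO (SD, n = 3), and 7.83 ± 1.22 in spleen WT and 8.34 ± 0.74 in spleen KO (SD, n = 2). Spleen WT replicate 2 stood apart. Its correlation with spleen WT replicate 3 was 0.932 over all tested genes and 0.961 over the 60 factors, on log2 values. The other replicate pairs had 0.968 to 0.974 and 0.982 to 0.991. The tests of the 60 factors that involve spleen WT were therefore also run without replicate 2. Role medians, pathway genes and the immediate early and ribosomal protein sets are given only with it.

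Few markers of other cells were in the table, which is labelled as holding detected genes by a filter that is not given. Of 7 neutrophil and 6 red cell markers none was in the table. Lipe was the only adipocyte marker of 7 (1.63 to 3.40 RPKM). Cd8a and Cd8b1 were the only CD8, NK and gamma-delta T cell markers of 8 (sums from 4.93 to 18.4 RPKM in VAT and from 11.1 to 20.03 in spleen). Pecam1 was the only stromal and endothelial marker of 8 (4.39 to 7.37 RPKM in VAT WT, 8.80 to 11.8 in VAT KO, 15.9 to 34.9 in spleen). B cell markers (5 of 9, without Pax5 and Ebf1) had sums from 13.5 to 62.8 RPKM in VAT and from 26.5 to 38.1 in spleen. Myeloid markers (Csf1r, Ctss, Adgre1 and Fcer1g of 10, without Lyz2, Cd68 and Cd14) summed to 12.3 to 15.2 RPKM in VAT WT, 20.2 to 45.6 in VAT KO, 179 to 240 in spleen WT and 183 to 186 in spleen KO. This sum moved with the tissue. In VAT, the myeloid sum and Pecam1 were also higher in every KO library than in every WT library. Lipe, the CD8 genes and the B cell sum overlapped between these groups. The part of other cells in the differences below was not tested. In bulk libraries fewer cells of a type and less RNA per cell cannot be told apart.

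The translation factors were among the well expressed genes of these Tregs, and a few of them made up much of the group's RNA. Their median rank was the 79.9 percentile of the table. Together they took 0.991, 1.03 and 1.00% of all RPKM in VAT WT, 1.03, 1.10 and 1.11% in VAT KO, 1.26 and 1.26% in spleen WT and 1.27 and 1.31% in spleen KO. The share was lower in all 6 VAT libraries than in all 4 spleen libraries. The 5 most abundant factors made up 36.6 to 41.6% of the group's sum in each library.

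Eef1a1, which encodes the factor that carries aminoacyl-tRNA to the ribosome, was the most abundant factor in every library, with a mean of 289 RPKM over the 10 libraries. The translocase gene Eef2 followed with 193 RPKM. Eif1, a guardian of start codon choice, had 168 RPKM and Eif5a, whose hypusine-bearing product relieves stalled ribosomes, had 125 RPKM. The eIF3 subunits ran from 10.7 RPKM for the loosely bound Eif3j1 to 84.8 RPKM for Eif3h, so subunits of the same complex differed widely in RNA level. At the low end were 2 enzymes that act on elongation factors, the eEF2 kinase gene Eef2k with 2.16 RPKM and the eEF1A lysine methyltransferase gene Eef1akmt4 with 2.10 RPKM. For these low genes a fold change on the log2(RPKM + 1) scale used in the tests understates the change in RPKM.

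**Figure D1:**
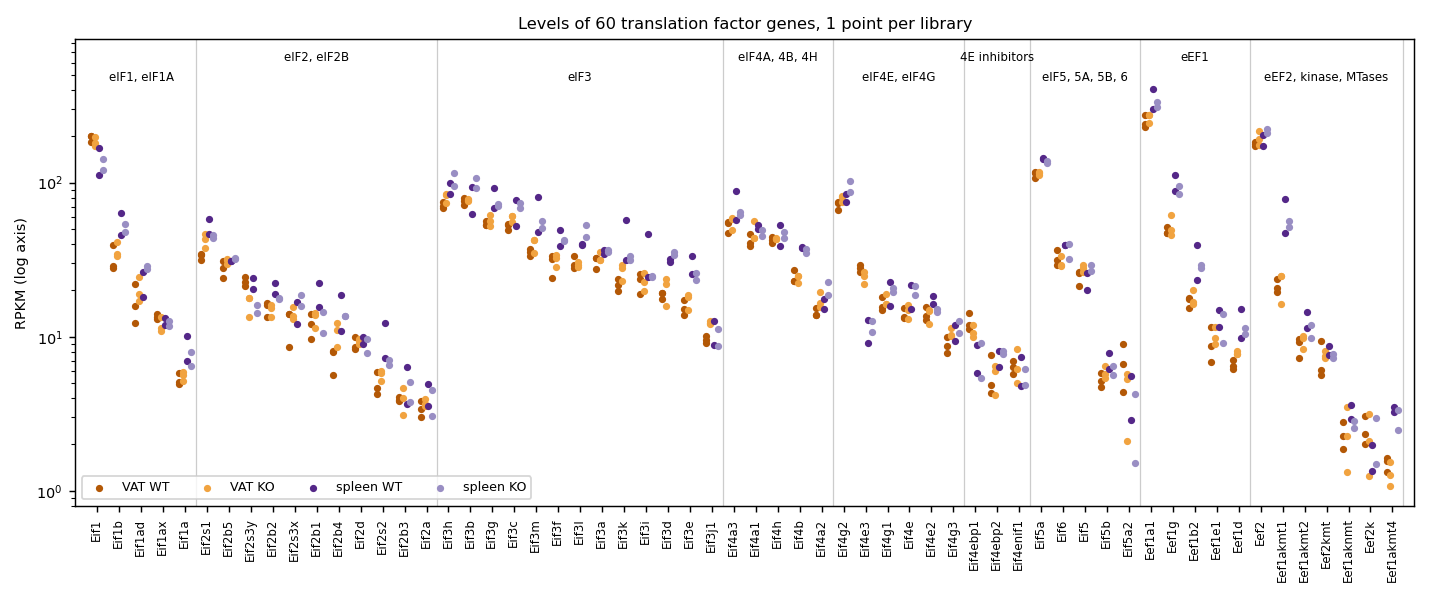
RPKM on a log axis for the 60 translation factor genes, with 1 point per library coloured by tissue and genotype and with genes grouped by role and ordered by mean level within a role. Eef1a1 and Eef2 reach the highest levels in all groups, and Eef2k and Eef1akmt4 lie at the low end.

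Promoter stretches of 7 factors are shown first, so that the letters near their starts can be compared. RefSeq windows on GRCm38.p6 (mm10), from 250 bases before to 50 bases after a start, were held for 48 of the 60 genes (62 windows). Eif4e3, Eef1akmt1, Eef1g, Eif3e and Eif4ebp1, described below, are among the 12 without a window, so their promoters are not shown. Each sequence below is the sense strand from 80 bases before to 20 bases after a RefSeq start. Capitals mark matches, on either strand, to 6 searched motifs and runs of at least 8 C or T letters on the sense strand that come within 15 bases of the start. They come from 4 eIF3 and eEF1 genes that were lower in VAT in at least 1 genotype, from Eif1, which was higher, and from the pair of eIF2 gamma genes on the sex chromosomes.
Eef1b2 (chr1:63176751-63176850, plus strand): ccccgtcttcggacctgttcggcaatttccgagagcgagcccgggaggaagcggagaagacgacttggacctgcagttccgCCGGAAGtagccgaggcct
Eif3d (chr15:77970805-77970904, minus strand): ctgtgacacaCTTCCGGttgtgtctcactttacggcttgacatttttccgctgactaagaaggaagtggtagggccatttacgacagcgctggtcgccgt
Eif3l (chr15:79075143-79075242, plus strand): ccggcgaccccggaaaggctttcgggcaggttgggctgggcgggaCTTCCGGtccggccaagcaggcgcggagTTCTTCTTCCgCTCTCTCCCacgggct
Eif3f (chr7:108934335-108934434, plus strand): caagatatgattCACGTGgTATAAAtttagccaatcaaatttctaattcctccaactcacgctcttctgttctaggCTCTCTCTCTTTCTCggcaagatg
Eif1 (chr11:100319869-100319968, plus strand): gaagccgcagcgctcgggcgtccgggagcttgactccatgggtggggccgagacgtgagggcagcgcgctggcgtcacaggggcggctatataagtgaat
Eif2s3y (chrY:1010515-1010614, plus strand): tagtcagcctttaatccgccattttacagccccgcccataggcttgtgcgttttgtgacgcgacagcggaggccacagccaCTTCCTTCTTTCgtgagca
Eif2s3x (chrX:94212632-94212731, minus strand): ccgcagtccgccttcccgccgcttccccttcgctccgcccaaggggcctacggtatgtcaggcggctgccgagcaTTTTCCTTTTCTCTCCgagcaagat
The Eef1b2, Eif3d and Eif3l stretches hold the ETS letters CCGGAAG or their reverse complement. Over the whole windows, these letters were found in 16 of 48 factors (33.3%), against 22.7% of the 8440 tested genes with a window and 9.93% of all 27025 genes with a window. The E-box letters CACGTG, seen in the Eif3f stretch next to the TATA box letters TATAAA, were found in 14 factors (29.2%, against 12.2% and 8.09%). The YY1 letters AAGATGG were found in 8 factors (16.7%, against 9.03% and 7.28%), TATAAA in 5 (10.4%, against 8.27% and 15.7%) and the cyclic AMP response letters TGACGTCA in 1, Eef2 (2.08%, against 3.9% and 2.03%). The sterol regulatory element letters TCACNCCAC, searched because SREBP2 binds such elements, were found in 1 factor, Eif2s3x (2.08%, against 1.41% and 1.44%). Pyrimidine runs near the start were found in 14 factors (29.2%, against 20.6% and 20%). Among them were Eef1a1, Eef2, Eif3f, Eif3l and both eIF2 gamma genes. Such runs are known from messages whose translation follows mTOR. The search did not ask for a run to begin at the start and also counted runs wholly before it, so such messages are not identified here. The Eif1 stretch holds none of these motifs or runs. A match is a description of the letters in this window and was not tested against binding.

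The first comparison asks how the factors differ between Tregs of fat and of spleen when Srebf2 is intact. Most factors had lower values in VAT. Differences are VAT minus spleen on log2(RPKM + 1), and a factor is called higher or lower at a limma adjusted p under 0.05, adjusted over all 10429 tested genes. Of 60, 17 were lower (28.3%; 15.4% of all tested genes were lower) and 3 were higher (5%; 10.7% of all tested genes). The log2 difference was below 0 for 51 of the 60, with a median of -0.34, against -0.12 over all tested genes. In 32 factors every VAT WT library lay below both spleen WT libraries (53.3%; 31% of all tested genes) and in 4 every VAT WT library lay above (18.1% of all tested genes). The 40 factors that were not called ranged from -0.62 to 0.56, and 34 of them were below 0. Below, most counts of factors called with a library left out stand without the share of all tested genes. Such counts cannot be read against that share. Without spleen WT replicate 2, which leaves 1 spleen WT library assumed to vary like the other groups, 6 factors were lower and 3 higher, with 5 of the 17 still among the lower ones, and 52 were below 0.

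In KO cells most factors again had lower values in VAT. Here 7 were lower in VAT (11.7%; 6.94% of all tested genes) and 1 was higher (1.67%; 7.65% of all tested genes), with 49 below 0 and a median of -0.22 against -0.09 over all tested genes. VAT KO and spleen KO did not overlap in 31 factors that were lower (30.4% of all tested genes) and 4 that were higher (20%). The 52 factors that were not called ranged from -0.50 to 0.55. The number of lower factors fell to 1 without spleen KO replicate 3, to 3 without spleen KO replicate 2 and to 4 without VAT KO replicate 1, and rose to 12 without spleen WT replicate 2 and without spleen WT replicate 3. The WT and KO comparisons share no library. Across the 60 factors their log2 differences had a Pearson correlation of 0.84, against 0.85 across all tested genes, and 52 factors had the same sign (86.7%; 75.9% of all tested genes). Of the factors called, 7 were called in both genotypes, which is 35% of the 20 in WT and 87.5% of the 8 in KO. Over all tested genes the shares were 45.2% and 80.9%.

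**Figure D2:**
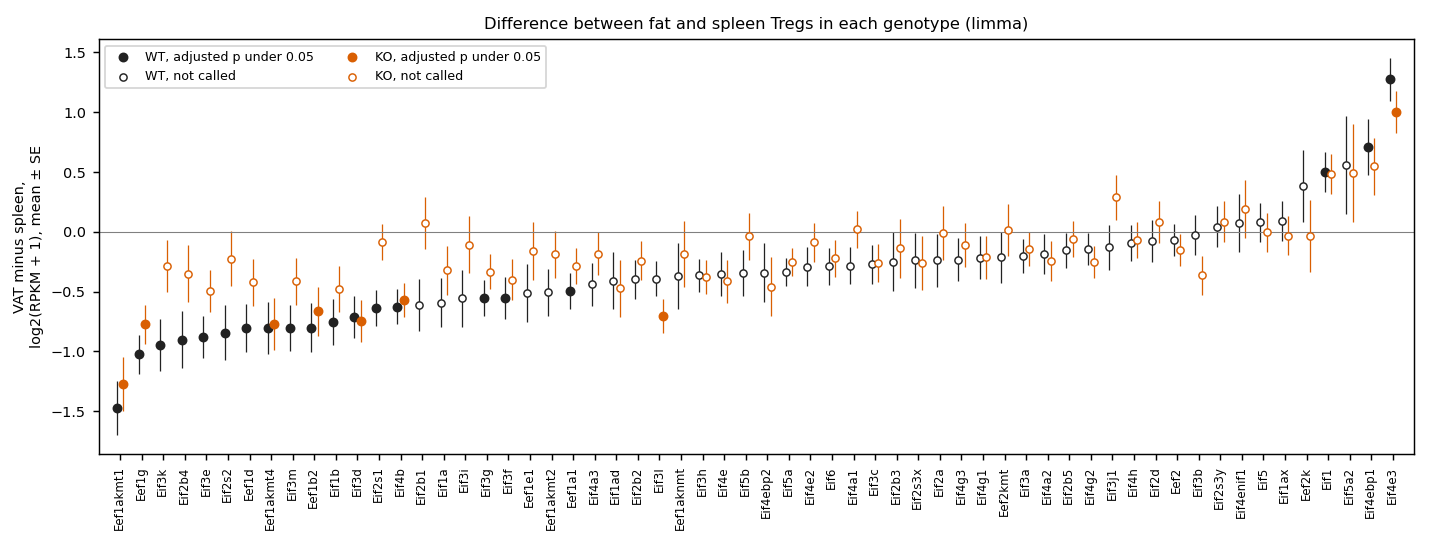
Difference VAT minus spleen on log2(RPKM + 1) for each of the 60 genes, ordered by the WT difference, in WT (black) and KO (orange), with bars for the SE from limma and filled points for an adjusted p under 0.05. Most points of both genotypes lie below 0, with Eef1akmt1 lowest at -1.47 and -1.28 and Eif4e3 highest at 1.27 and 1.00.

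By role, the eEF1 group showed the lowest median. The 5 eEF1 genes had a median log2 difference of -0.80 in WT and -0.42 in KO, and all 5 were below 0 in both. In WT 4 were lower (80%, against 15.4% of all tested genes). In KO 2 were lower (40%, against 6.94% of all tested genes). Eef1g, which encodes the gamma subunit that anchors the eEF1B exchange complex, was at 46.8, 51.6 and 47.2 RPKM in VAT WT and 113 and 88.2 RPKM in spleen WT. It was at 45.5, 49.3 and 61.6 RPKM in VAT KO and 84.0 and 94.5 RPKM in spleen KO, so all 6 VAT libraries were below all 4 spleen libraries. The log2 difference was -1.02 ± 0.16 in WT (adjusted p = 0.000628) and -0.77 ± 0.16 in KO (adjusted p = 0.00655; not called without spleen KO replicate 3).

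Eef1b2 encodes the catalytic exchange subunit of the same complex. Its levels were 17.7, 17.9 and 15.3 RPKM in VAT WT, 16.7, 16.4 and 20.2 in VAT KO, 39.4 and 23.2 in spleen WT and 28.02 and 29.4 in spleen KO. No VAT library reached the lowest spleen library, and the log2 difference was -0.80 ± 0.21 in WT (adjusted p = 0.013) and -0.67 ± 0.21 in KO (adjusted p = 0.0475). The WT call was lost without spleen WT replicate 2 (-0.43, adjusted p = 0.125) and the KO call held in 2 of 10 fits that each left out a library. Eef1d, the delta subunit, fell from 15.2 and 9.74 RPKM in spleen WT to 6.45, 7.02 and 6.17 in VAT WT (log2 difference -0.81 ± 0.20, adjusted p = 0.0105), and this call too was lost without spleen WT replicate 2 (-0.51, adjusted p = 0.101).

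For Eef1a1 itself the libraries read 228, 276 and 241 RPKM in VAT WT, 243, 276 and 274 in VAT KO, 404 and 302 in spleen WT and 312 and 334 in spleen KO. All VAT libraries were below all spleen libraries. The difference was -0.50 ± 0.15 in WT (adjusted p = 0.028), lost without spleen WT replicate 2 (-0.29, adjusted p = 0.165) and under median ratio scaling, and -0.29 ± 0.15 in KO (adjusted p = 0.23). The WT call of Eef1a1 was also lost without VAT WT replicate 1 or 3. It was lost as well with sample weights, with the replicate block and with only the 2 groups compared. Eef1a1 has many processed near-copies in the genome, and the treatment of reads shared with them is not stated by the labels or headers. Eef1e1, whose product belongs to the tRNA synthetase complex in spite of its name, had a difference of -0.51 ± 0.24 in WT (adjusted p = 0.136).

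The translocase gene was not called in either genotype. Eef2 was at 185, 178 and 174 RPKM in VAT WT and 173 and 204 in spleen WT, groups that overlap, with a log2 difference of -0.071 ± 0.13 (95% interval -0.36 to 0.22). In KO it was -0.15 ± 0.13 (adjusted p = 0.501). The kinase that inhibits it, Eef2k, was at 2.01, 2.34 and 3.04 RPKM in VAT WT and 1.35 and 1.97 in spleen WT (0.38 ± 0.30, adjusted p = 0.375). Whether Eef2 and Eef1a1 differ from each other in their response was not tested.

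Among the enzymes that methylate elongation factors, Eef1akmt1 had the largest fall of all 60 factors in both genotypes. Eef1akmt1 encodes a lysine methyltransferase of eEF1A. It was at 23.5, 19.6 and 20.8 RPKM in VAT WT and 78.0 and 47.3 in spleen WT, a log2 difference of -1.47 ± 0.23 (adjusted p = 0.000476). In KO it was at 16.4, 24.9 and 24.8 RPKM in VAT and 51.7 and 56.0 in spleen, a difference of -1.28 ± 0.23 (adjusted p = 0.00213). The highest VAT library, at 24.9 RPKM, lay well below the lowest spleen library, at 47.3 RPKM, and the call held in every alternative fit in both genotypes (-1.12, adjusted p = 0.00444 in WT without spleen WT replicate 2).

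Eef1akmt4, another eEF1A methyltransferase gene, was much lower in level, at 1.33, 1.63 and 1.56 RPKM in VAT WT against 3.25 and 3.49 in spleen WT (-0.80 ± 0.22, adjusted p = 0.0175) and 1.53, 1.07 and 1.26 against 2.48 and 3.36 in KO (-0.77 ± 0.22, adjusted p = 0.0318). Its groups did not overlap in either genotype. The WT call was lost without spleen WT replicate 2 or VAT WT replicate 1, and the KO call held in 5 of 10 fits that each left out a library, being lost without any of the 5 KO libraries and under the replicate block (adjusted p = 0.0744). Eef1akmt4 (chromosome 16, 20611601 to 20618869) lies wholly within the readthrough gene Eef1akmt4-ece2, and reads of the 2 cannot be told apart here. The other enzymes of this group, Eef1akmt2, Eef2kmt and Eef1aknmt, were not called in either genotype.

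**Figure D3:**
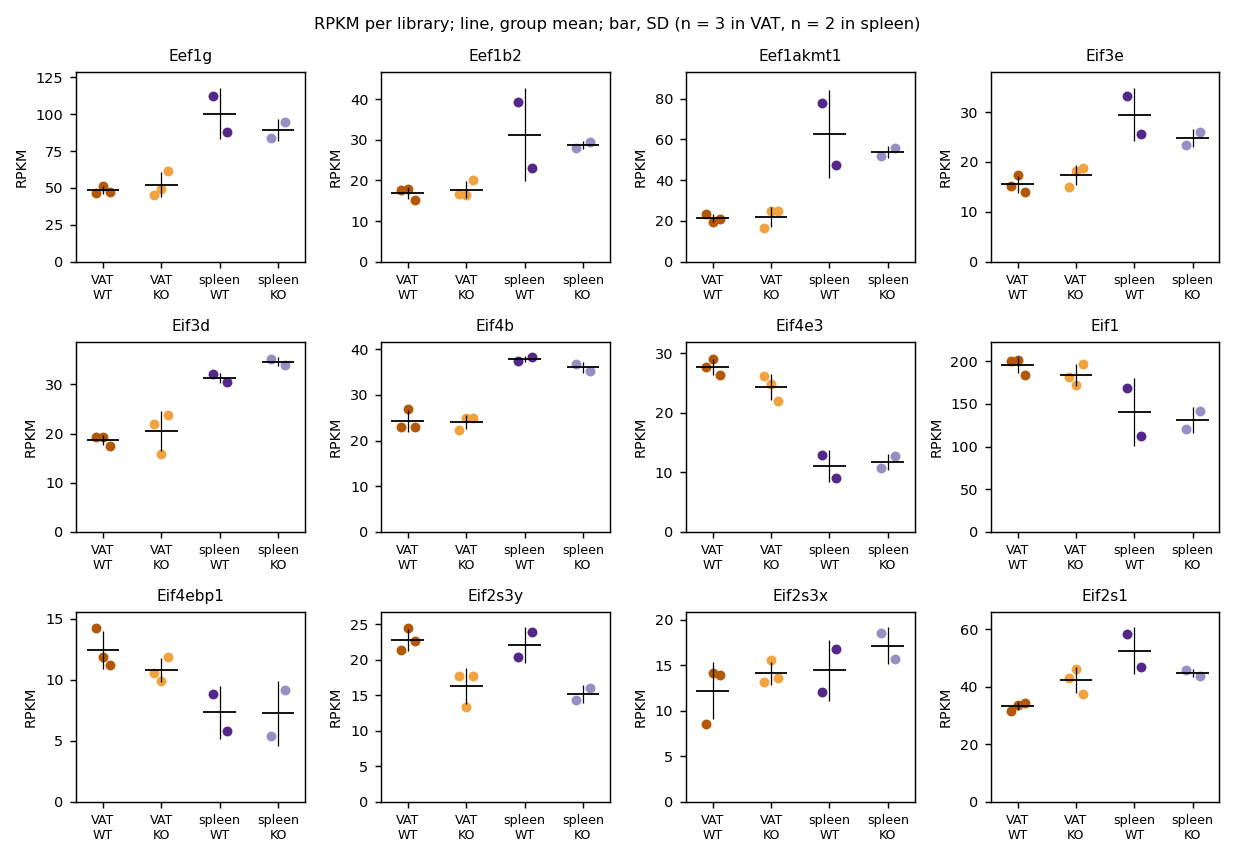
RPKM of 12 translation factor genes in every library by group, with a point for each library, a line for the group mean and a bar for the SD (n = 3 in each VAT group, n = 2 in each spleen group). Eef1g, Eef1akmt1, Eif3d and Eif4b sit lower in all VAT libraries than in any spleen library, Eif4e3 sits higher, and Eif2s3y sits lower in all KO libraries than in any WT library.

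The 13 subunits of eIF3, the scaffold that holds the small ribosomal subunit and recruits messenger RNA, had lower values in VAT. All 13 were below 0 in WT, with a median of -0.55, and 12 of 13 were below 0 in KO, with a median of -0.36. In WT 6 were lower (46.2%, against 15.4% of all tested genes). In KO 2 were lower (15.4%, against 6.94% of all tested genes). Eif3d, whose product can itself bind caps, was at 19.3, 19.4 and 17.5 RPKM in VAT WT and 32.0 and 30.6 in spleen WT (-0.71 ± 0.18, adjusted p = 0.0104). In KO it was at 22.0, 15.8 and 23.7 RPKM in VAT and 35.2 and 33.9 in spleen (-0.74 ± 0.18, adjusted p = 0.0126), so that both genotypes showed a gap between the tissues. The WT call of Eif3d held without each library in turn, and the KO call was lost without either spleen KO library.

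Eif3e, a subunit that links eIF3 to the eIF4 factors, was at 15.2, 17.4 and 13.9 RPKM in VAT WT and 33.3 and 25.7 in spleen WT (-0.88 ± 0.18, adjusted p = 0.003). In KO the difference was -0.50 ± 0.18 (adjusted p = 0.0806). Eif3k and Eif3l encode partner subunits at the edge of the complex, and their calls went to different genotypes. Eif3k was at 21.5, 23.7 and 19.9 RPKM in VAT WT and 57.1 and 31.7 in spleen WT (-0.94 ± 0.22, adjusted p = 0.0069), and -0.53, adjusted p = 0.0623 without spleen WT replicate 2. In KO Eif3k differed by -0.29 ± 0.22 (adjusted p = 0.425).

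Eif3l was at 29.4, 30.6 and 28.4 RPKM in VAT KO and 44.7 and 52.9 in spleen KO (-0.71 ± 0.14, adjusted p = 0.00556), and in WT differed by -0.39 ± 0.14 (adjusted p = 0.0633). The KO call of Eif3l was lost without spleen KO replicate 3. In the test of the difference between genotypes neither Eif3k nor Eif3l passed, with 0.66 ± 0.30 for Eif3k (adjusted p = 0.699) and -0.31 ± 0.20 for Eif3l (adjusted p = 0.788). The other calls in WT were Eif3m (-0.80 ± 0.20, adjusted p = 0.00971), Eif3g (-0.56 ± 0.15, adjusted p = 0.0162) and Eif3f (-0.55 ± 0.17, adjusted p = 0.0354). All 3 were lost without spleen WT replicate 2 (-0.44, -0.35 and -0.38), while Eif3c, not called with it, was called without it (-0.55, adjusted p = 0.0147). The Eif3f call held in 5 of 10 fits that each left out a library, and the Eif3g call was also lost without VAT WT replicate 3. The most abundant subunit genes, Eif3h and Eif3b, differed by -0.37 ± 0.14 and -0.026 ± 0.16 in WT and were not called. Eif3b was at 62.7 and 93.7 RPKM in the spleen WT libraries, and without replicate 2 its difference was -0.31, adjusted p = 0.13.

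**Figure D4:**
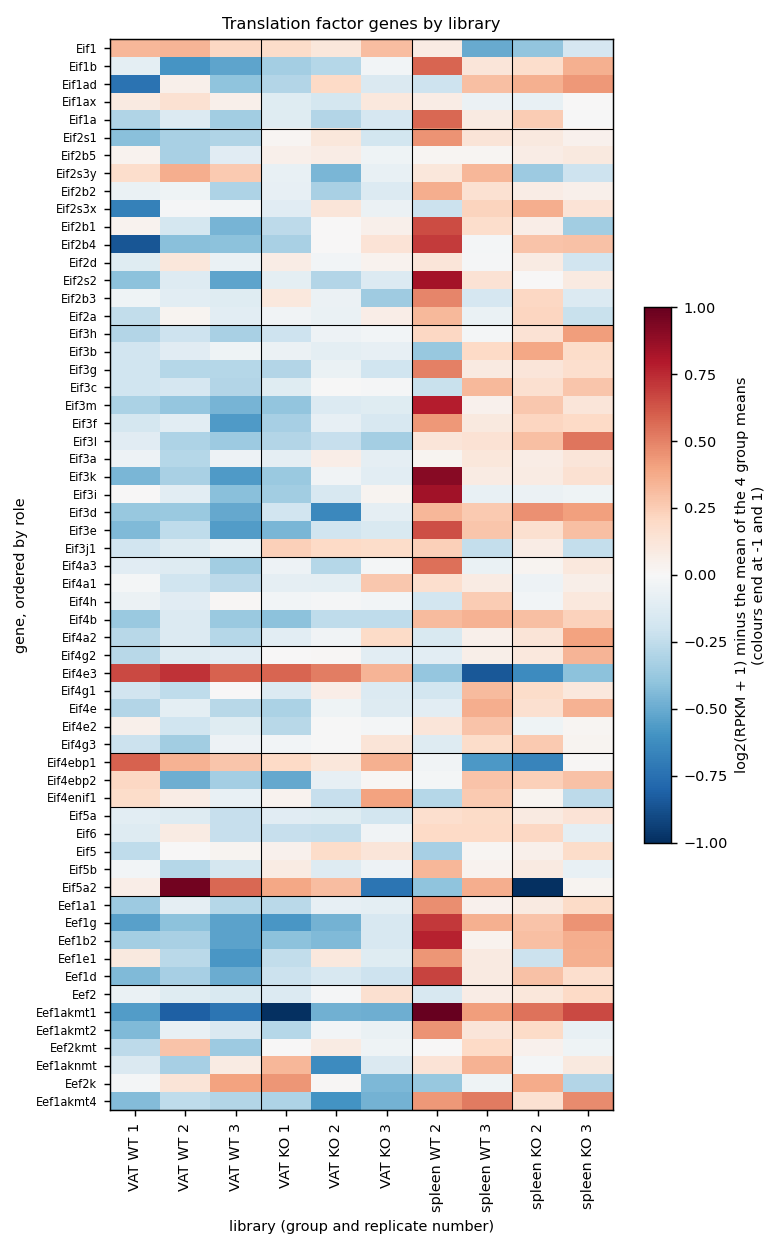
Each of the 60 genes in each library as log2(RPKM + 1) minus the mean of its 4 group means, from blue (lower) to red (higher), with colours ending at -1 and 1 and lines between roles and groups. The eIF3 and eEF1 blocks are mostly blue in the 6 VAT columns, and spleen WT replicate 2 differs from the other spleen columns.

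Among the eIF4 factors the cap binder Eif4e3 went up and the helicase cofactor Eif4b went down in VAT. Eif4e3 encodes an unusual member of the eIF4E family that binds caps in a different manner from eIF4E. It was at 27.7, 29.0 and 26.3 RPKM in VAT WT and 12.9 and 9.09 in spleen WT, 1.27 ± 0.18 on the log2 scale (adjusted p = 0.000219). In KO it was at 26.2, 24.9 and 21.9 RPKM in VAT and 10.7 and 12.6 in spleen, 1.00 ± 0.18 (adjusted p = 0.00212). Every VAT library was above every spleen library, the call held in every alternative fit in both genotypes, and no other factor was called higher in both.

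The main cap binder, Eif4e, was not called, at 13.3, 15.3 and 13.5 RPKM in VAT WT and 15.2 and 21.5 in spleen WT (-0.35 ± 0.18, adjusted p = 0.175), and Eif4e2, whose product represses translation from the cap, differed by -0.29 ± 0.17 (adjusted p = 0.216). Eif4e3 made up 42.5 to 51.0% of the RPKM of the 3 cap binder genes in VAT and 18.6 to 29.0% in spleen. Eif4e3 (chromosome 6, 99621879 to 99692873) overlaps Gpr27 over 507 bases and a long noncoding RNA gene over 7166 bases. The libraries do not mark the strand, so reads in the overlaps cannot be assigned.

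Eif4b encodes the cofactor that stimulates the eIF4A helicase. It was at 22.9, 27.0 and 22.9 RPKM in VAT WT and 37.4 and 38.3 in spleen WT (-0.63 ± 0.14, adjusted p = 0.00721), and at 22.2, 24.9 and 24.8 RPKM in VAT KO and 36.9 and 35.2 in spleen KO (-0.57 ± 0.14, adjusted p = 0.0183). The tissues did not overlap in either genotype, and the KO call was lost without VAT KO replicate 1 or either spleen KO library. The helicase genes themselves were not called: in WT Eif4a1 differed by -0.29 ± 0.15, Eif4a2 by -0.18 ± 0.17 and Eif4a3, a core protein of the exon junction complex, by -0.44 ± 0.18. The scaffolds Eif4g1, Eif4g2 and Eif4g3 differed by -0.22 ± 0.18, -0.15 ± 0.13 and -0.23 ± 0.18 in WT and were not called either.

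Eif4ebp1 encodes the inhibitor that holds eIF4E until mTOR phosphorylates it. Its levels were 14.2, 11.8 and 11.2 RPKM in VAT WT, 10.6, 9.93 and 11.9 in VAT KO, 8.87 and 5.78 in spleen WT and 5.38 and 9.16 in spleen KO. All VAT libraries were above all spleen libraries, with a difference of 0.71 ± 0.24 in WT (adjusted p = 0.0433) and 0.55 ± 0.24 in KO (adjusted p = 0.149). The WT call held in 3 of 10 fits that each left out a library, and leaving out spleen WT replicate 2 gave a difference of 0.98 and leaving out replicate 3 one of 0.44. The related Eif4ebp2 differed by -0.34 ± 0.25 in WT (adjusted p = 0.331), and Eif4enif1, a carrier of eIF4E into the nucleus, by 0.077 ± 0.24.

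In the eIF1 group, the paralogs Eif1 and Eif1b were called in opposite directions in WT. Eif1 was at 200.4, 202 and 184 RPKM in VAT WT, 181, 172 and 197 in VAT KO, 168 and 112 in spleen WT and 121 and 142 in spleen KO, all VAT libraries above all spleen libraries. The difference was 0.50 ± 0.17 in WT (adjusted p = 0.0416) and 0.48 ± 0.17 in KO (adjusted p = 0.0723). Of 10 fits that each left out a library, the WT call held in 1, the one without spleen WT replicate 2 (0.79, adjusted p = 0.0015), and the difference was 0.21 without spleen WT replicate 3.

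Eif1b, a close copy of Eif1, was at 39.5, 27.8 and 28.9 RPKM in VAT WT and 63.8 and 46.0 in spleen WT (-0.76 ± 0.19, adjusted p = 0.0127, lost without spleen WT replicate 2). Eif1 made up 82.6 to 87.9% of the RPKM of this pair in VAT and 71.0 to 72.5% in spleen. The eIF1A genes Eif1a and Eif1ax differed by -0.59 ± 0.21 (adjusted p = 0.0511, just outside the threshold) and 0.09 ± 0.16 in WT. Within each of these pairs the sequences are similar, and how shared reads were divided is not given in the sources used here, so their separate values are uncertain.

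Of the 11 genes of eIF2, its exchange factor eIF2B and the related tRNA carriers, 3 were lower in VAT WT (27.3%, against 15.4% of all tested genes). None was called in KO, and the medians were -0.25 in WT and -0.09 in KO. Eif2s1, the alpha subunit that stress kinases phosphorylate, was at 31.6, 33.8 and 34.4 RPKM in VAT WT and 58.4 and 46.7 in spleen WT (-0.64 ± 0.15, adjusted p = 0.00834), but at 43.2, 46.2 and 37.4 in VAT KO and 45.7 and 43.9 in spleen KO, where the groups overlap (-0.087 ± 0.15, adjusted p = 0.764). Eif2s2, the beta subunit, differed by -0.84 ± 0.23 in WT (adjusted p = 0.0175) and Eif2b4, a regulatory subunit of eIF2B, by -0.90 ± 0.24 (adjusted p = 0.016). All 3 calls were lost without spleen WT replicate 2, where the differences were -0.48, -0.50 and -0.54. The Eif2s2 call was also lost without VAT WT replicate 3 and the Eif2b4 call without VAT WT replicate 1. Both were lost as well with sample weights and with only the 2 groups compared. No gene of the group of eIF5, eIF5A, eIF5B and eIF6 was called. Eif5a was closest, with 118, 116 and 108 RPKM in VAT WT against 143 and 145 in spleen WT (-0.34 ± 0.12, adjusted p = 0.0505), groups that do not overlap. The second eIF5A gene, Eif5a2, varied widely among libraries of a group, with 4.39, 9.01 and 6.67 RPKM in VAT WT, 5.72, 5.35 and 2.10 in VAT KO, 2.88 and 5.60 in spleen WT and 1.51 and 4.24 in spleen KO.

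Both genotypes also differed between tissues in 2 sets of genes that were looked at after the data were seen. Immediate early and stress genes, a class known to be induced while tissue is dissociated, were higher in VAT for 12 of 12 genes in WT and in KO, with medians of 4.80 and 4.12 on the log2 scale. They summed to 6374 to 7047 RPKM in VAT WT, 5538 to 5827 in VAT KO, 606 to 726 in spleen WT and 557 to 669 in spleen KO. Genes of cytosolic ribosomal proteins were below 0 in VAT for 77 of 77, with 70 lower in WT (median -0.91) and 9 lower in KO (median -0.57). They summed to 5245 to 6606 RPKM in VAT WT, 5674 to 7371 in VAT KO and 8872 to 10164 in spleen KO. The 2 spleen WT libraries were far apart, at 8003 and 14888 RPKM. Values of this set without spleen WT replicate 2 are not given, so the numbers in WT and KO cannot be set against each other. Of all tested genes, 15.4% were lower and 10.7% higher in WT, and 6.94% were lower and 7.65% higher in KO. The part of either set in the translation factor differences was not tested.

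The neighbouring genes of the pathway showed 1 very large difference. Ppp1r15a encodes GADD34, the phosphatase subunit that reverses eIF2 phosphorylation and is itself stress-induced. It was at 313, 327 and 344 RPKM in VAT WT and 11.5 and 9.46 in spleen WT (4.85 ± 0.15, adjusted p = 5.42e-10), and at 327, 281 and 301 in VAT KO and 7.21 and 9.49 in spleen KO (5.03 ± 0.15, adjusted p = 6.82e-10). It rose in VAT along with the immediate early genes. Of the 6 kinases and phosphatases of eIF2, 2 were higher in VAT WT, the other being the endoplasmic reticulum kinase gene Eif2ak3 (0.80 ± 0.21, adjusted p = 0.0155), and 1 was higher in VAT KO.

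Of 12 genes of mTOR and MNK control, 1 was lower in each genotype, Pdcd4, an inhibitor of eIF4A (-0.72 ± 0.15 in WT, adjusted p = 0.00329, and -0.77 ± 0.15 in KO, adjusted p = 0.00341). Larp1, a repressor of messages with pyrimidine-rich starts, differed by -0.53 ± 0.22 in WT (adjusted p = 0.0886). Of 10 poly(A)-binding and scanning genes, none was called in WT and 1 was higher in KO, the helicase gene Ddx3x (0.68 ± 0.19, adjusted p = 0.0312). Of 5 termination and recycling genes, 1 was lower in each genotype, the ribosome recycling gene Abce1 (-0.48 ± 0.16 and -0.62 ± 0.16, adjusted p = 0.0403 and 0.0195).

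Of 8 genes for the hypusine and diphthamide marks, which are set on eIF5A and eEF2, 2 were lower in WT and none in KO, with Dph5 at -0.96 ± 0.18 (adjusted p = 0.00221) and Dph7 at -0.74 ± 0.20 (adjusted p = 0.0176). Of 9 mitochondrial translation factors, 2 were lower in WT, the mitochondrial elongation factor Tufm (-0.58 ± 0.16, adjusted p = 0.0183) and the initiation factor Mtif3 (-0.72 ± 0.21, adjusted p = 0.0242), and 1 in KO. Of 22 genes of cytosolic tRNA synthetases and their scaffold, 4 were lower in WT, among them both phenylalanine synthetase subunits Farsa (-0.66 ± 0.17) and Farsb (-0.67 ± 0.18), and none in KO. Of 7 exon junction partners of Eif4a3, 1 was lower in WT, Magoh (-0.68 ± 0.23, adjusted p = 0.044), and none in KO. Values of the pathway genes without spleen WT replicate 2 are not given, so how far their WT calls rest on it is not shown. In this order the 8 lists had median WT differences of 0.28, -0.036, -0.22, -0.28, -0.29, -0.45, -0.27 and -0.33, against -0.12 over all tested genes. The share called higher in WT was 33.3% for the eIF2 kinases and phosphatases (2 of 6), against 10.7% of all tested genes. In the same order the shares called lower in WT were 0, 8.33, 0, 20, 25, 22.2, 18.2 and 14.3%, against 15.4% of all tested genes. In KO they were 0, 8.33, 0, 20, 0, 11.1, 0 and 0%, against 6.94% of all tested genes. The shares called higher in KO were 16.7% for the eIF2 kinases and phosphatases and 10% for the poly(A)-binding and scanning genes. Of all tested genes, 7.65% were called higher in KO.

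The next comparison asks what Srebf2 deletion does to the factors in VAT Tregs. No translation factor was called (limma; 0.422% of all tested genes were called), and the smallest adjusted p was 0.395. At an unadjusted p under 0.05 there were 3 of 60, against 7.35% of all tested genes. The log2 difference KO minus WT was above 0 for 45 of 60 with a median of 0.09, against 0.02 over all tested genes. KO and WT did not overlap in 9 factors that were higher in KO (15%; 8.97% of all tested genes) and 2 that were lower (3.33%; 6.16% of all tested genes). Of the most abundant factors, Eef1a1 differed by 0.094 ± 0.13 (95% interval -0.20 to 0.38) and Eef2 by 0.12 ± 0.12 (95% interval -0.14 to 0.38).

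Eif2s3y, the Y-linked gene of the gamma subunit of eIF2, had the smallest p in both tissues. It was at 21.3, 24.5 and 22.7 RPKM in VAT WT and 17.8, 13.4 and 17.7 in VAT KO (-0.47 ± 0.15, adjusted p = 0.395). In spleen it was at 20.4 and 24.0 RPKM in WT and 14.3 and 16.1 in KO (-0.51 ± 0.19, adjusted p = 0.594). Every KO library was below every WT library, and no adjusted p passed. The mean of both tissues, a contrast added after the data were seen, was -0.49 ± 0.12 (SE, adjusted p = 0.268; 0.0767% of all tested genes were called in it).

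Its X-linked partner Eif2s3x was at 8.56, 14.1 and 14.0 RPKM in VAT WT, 13.1, 15.6 and 13.6 in VAT KO, 12.1 and 16.8 in spleen WT and 18.6 and 15.7 in spleen KO, groups that overlap. Eif2s3y made up 62.0 to 71.4% of the RPKM of the pair in VAT WT, 46.2 to 57.6% in VAT KO, 58.8 and 62.7% in spleen WT and 43.6 and 50.6% in spleen KO. The share was lower in every KO library than in every WT library. Other Y-linked genes were not called between genotypes. Their differences KO minus WT in VAT and spleen were 0.29 and 0.37 for Ddx3y, 0.21 and 0.062 for Kdm5d and 0.22 and -0.15 for Uty. The 2 gamma genes are near-copies, and how reads that fit both were divided is likewise not stated.

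The other factors with the smallest p in VAT were Eif2s1 (0.33 ± 0.13, adjusted p = 0.567), Eif2b4 (0.50 ± 0.22, adjusted p = 0.634) and Eif3j1 (0.34 ± 0.17, adjusted p = 0.763). In each of them every KO library was above every WT library. The largest difference in VAT, that of Eif5a2, had a wide error in both tissues (-0.55 ± 0.37 in VAT and -0.48 ± 0.45 in spleen). Eif2b4 read 5.64, 7.98 and 8.04 RPKM in VAT WT and 8.58, 11.1 and 12.2 in VAT KO.

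In spleen the same comparison called no factor (0% of all tested genes were called), with a smallest adjusted p of 0.594. At an unadjusted p under 0.05 there were 2, both lower in KO, against 8.37% of all tested genes. The difference was below 0 for 40 of 60 with a median of -0.09, against -0.03 over all tested genes, and this median became 0.025 without spleen WT replicate 2. KO and WT did not overlap in 8 factors that were higher (13.3%; 15% of all tested genes) and 10 that were lower (16.7%; 17.5% of all tested genes). After Eif2s3y, the smallest p values were those of Eif2b1, the alpha subunit of eIF2B (-0.55 ± 0.24, adjusted p = 0.594), Eif3b (0.37 ± 0.18, adjusted p = 0.596) and Eif3l (0.29 ± 0.16, adjusted p = 0.638). Without spleen WT replicate 3, which leaves the library that stood apart as the only spleen WT sample, 732 of all tested genes were called higher and 663 lower. The factors called then were 4 eIF3 subunits: Eif3b was higher in KO (0.66, adjusted p = 0.0161) and Eif3i, Eif3k and Eif3m were lower (-0.89, -0.79 and -0.59, with adjusted p of 0.0225, 0.0213 and 0.0400). Without spleen WT replicate 2, Eif3b differed by 0.085, Eif3k by 0.035 and Eif2b1 by -0.31, and none was called.

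**Figure D5:**
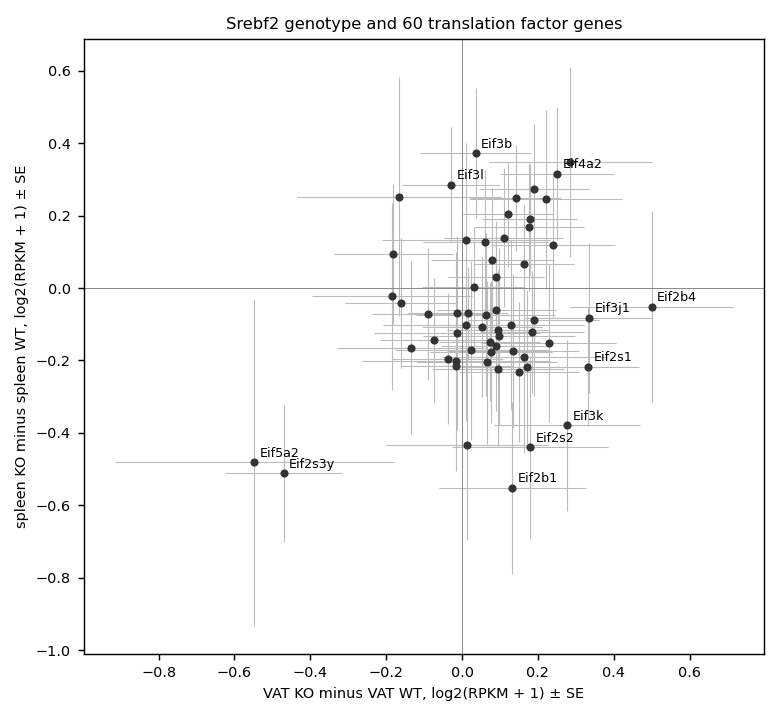
Difference KO minus WT on log2(RPKM + 1) in spleen (vertical axis) against that in VAT (horizontal axis) for the 60 genes, with bars for the SE from limma. Eif2s3y and Eif5a2 lie below 0 on both axes by the widest margin, and no gene passed the adjusted threshold in either tissue.

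Whether the genotype effect differed between tissues was tested as an interaction. No factor was called (0% of all tested genes were called; smallest adjusted p 0.653), and 2 had an unadjusted p under 0.05, against 7.08% of all tested genes. The difference VAT minus spleen of the genotype effect was above 0 for 42 of 60, with a median of 0.12 against 0.05 over all tested genes. The smallest p values were those of Eif2s1 (0.55 ± 0.21), Eif2b1 (0.68 ± 0.31, adjusted p = 0.699), Eif3k (0.66 ± 0.30) and Eif2s2 (0.62 ± 0.32, adjusted p = 0.735). These values moved with the spleen WT library left out. Without spleen WT replicate 2 they were 0.39, 0.45, 0.24 and 0.28, with none called, and without replicate 3 they were 0.71, 0.92, 1.07 and 0.96, with Eif3k called (adjusted p = 0.0271). None of the pathway genes listed above was called between genotypes in either tissue, the smallest adjusted p being 0.324.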

How the data were processed

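Bulk RNA sequencing was done on sorted Tregs, with RNA from a Quick-RNA MicroPrep kit, SMART-seq v4 cDNA and Nextera XT libraries, which carry no strand information, per the labels' protocols. STAR and mm10 are named by the submitters' processing notes. Which counter, gene models, scaling and gene filter were used is not given in the sources used here. Per the file headers, the table that the authors deposited gives RPKM per gene and sample for 10992 genes. It holds no counts, so depth stays unknown and counting error cannot be given. RPKM summed to 185319 to 210779 per library, with 9551 to 9774 genes at 1 RPKM or more.

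The labels gave the groups of 11 samples, and 10 of them could be matched to a column. Spleen KO replicate 1 was not analysed here, and 1 value column without a labelled sample was left unused. Symbols turned into dates were restored for 15 genes by Entrez identifier. All 60 members were found in GRCm38.p6.

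Values were tested as log2(RPKM + 1) over 10429 genes with at least 1 RPKM in at least 2 samples, in 1 limma model (R 4.3.3, limma 3.58.1) of the 4 group means without covariates (trend on, robust off, 6 residual and 6.44 prior degrees of freedom). Tests were two-sided with Benjamini-Hochberg adjustment over all tested genes. An exact permutation test could not go below p = 0.1 with 3 against 3 samples or 0.333 with 2 against 2, and none was run. The code was tested on simulated data.

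The rule for naming members took the largest called differences in each direction whose groups do not overlap, and the 4 smallest p where none was called. It also took the 3 most abundant of each role, members of listed paralog sets, and the 2 pathway genes of each list with the smallest p. The rule was not followed in full. Eif1ad, Eif2b5, Eif4h, Eif5 and Eif6, among the 3 most abundant of their roles, are not described. Eif4a2, Eif4g2 and Eif5 are not described for the contrast averaged over tissues. For the poly(A), termination and exon junction lists the 2 genes were not both described. Eif5a2, Eif3c, Eif3f, Eif3i, Eif3m, Eef1e1, Eef1akmt2, Eef2kmt, Eef1aknmt and the Y-linked genes other than Eif2s3y were named after their values were seen. The members and lists were chosen with earlier results of these data known, and the immediate early and ribosomal protein lists after seeing the data. Promoter letters are from RefSeq windows. Alternatives changed the pseudocount, the filter, the scaling, the spread model, the samples in the fit and the replicate block, or left out each library.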

Additional observations from a re-analysis of the deposited data

Results flagged for a closer look

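Eif2s1, the gene of the eIF2 subunit that stress kinases phosphorylate, was singled out from the 60 factors by a rule. The rule asked for genotype effects of opposite sign in the tissues, with no overlap of KO and WT in either. All 3 VAT KO libraries were above all 3 VAT WT libraries (log2 difference KO minus WT 0.33), and both spleen KO libraries were below both spleen WT libraries (-0.22). The effects differed by 0.55 on the log2 scale, with an unadjusted interaction p of 0.0233 and a limma adjusted p of 0.653, so the difference did not pass. Without spleen WT replicate 2, the library that stands apart, the spleen difference was -0.059 (unadjusted p = 0.724) and the effects differed by 0.39 (unadjusted p = 0.0699, adjusted p = 0.963). Of all tested genes, 8.97% were higher in VAT KO without overlap and 17.5% were lower in spleen KO without overlap. The share of genes with both is not given here. No group here has 4 or more samples, so no search for single outlying libraries was made.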

How the results depend on the processing

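The alternatives were scored for 35 pairs of factor and comparison, picked for a large called difference or a small p. That choice made a change of direction unlikely. Of these results, 625 kept their direction and their side of the threshold, 63 lost a call, 2 gained a call and none changed direction. Pairs from the genotype comparisons, the interaction and the averaged contrast had no call to lose. All 63 losses therefore fell on pairs called between tissues, so the pooled count overstates how well those calls held. Results that were not scored did change direction. In spleen, KO minus WT changed without spleen WT replicate 2. It went from -0.38 to 0.035 for Eif3k, from -0.43 to 0.025 for Eif3i and from -0.22 to 0.15 for Eif3m. Median ratio scaling moved the WT tissue median of all genes from -0.12 to -0.0052 and that of the factors from -0.34 to -0.22. Under that scaling 14 factors were lower and 3 higher, with 1085 of all tested genes lower and 1364 higher. In the main fit 1607 of all tested genes were lower and 1116 higher. The WT tissue comparison called 1 factor higher with sample weights, with the replicate block and with only the 2 groups compared, and 8 lower with sample weights and with only the 2 groups. In KO, 2 factors were higher with median ratio scaling, with sample weights and with only the 2 groups. Lower factors in KO then numbered 11 with sample weights, 13 with only the 2 groups and 4 with the replicate block. Apart from median ratio scaling in WT, counts over all tested genes are not set beside these numbers. The causes were not tested.

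Leaving out 1 library at a time gave, in WT, 1 to 3 higher and 6 to 25 lower factors, and in KO 1 to 2 higher and 1 to 12 lower. The lowest WT number of lower factors came without spleen WT replicate 2 and the highest without spleen WT replicate 3. Without replicate 3 the number called lower rose over all tested genes too. The counts in this paragraph stand without the share of all tested genes and cannot be read against it. Between genotypes in spleen the ranges were 0 to 1 higher and 0 to 3 lower, with all calls coming without spleen WT replicate 3, and the median ran from -0.15 to 0.025, the latter without spleen WT replicate 2. The interaction gave 0 to 1 higher, and the genotype effect averaged over tissues, added after the data were seen, 0 to 2 higher, again without spleen WT replicate 3. A fit that leaves 1 sample in a group assumes that it varies like the others. In every alternative fit 4 WT calls (Eif4e3, Eef1akmt1, Eef1g and Eif3e) and 2 KO calls (Eif4e3 and Eef1akmt1) held.

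Over all pairs of samples with the same replicate number, the correlations of their deviations from the group means ran from -0.15 to 0.18. They were -0.092, 0.049 and -0.15 between VAT WT and VAT KO, -0.061 between spleen WT and spleen KO, 0.092 and 0.18 between VAT WT and spleen WT, and 0.0031 and 0.046 between VAT KO and spleen KO. A single pair was over 0.1, and the labels name no pairing. The samples were therefore not treated as paired, and the replicate block gave 15 lower factors in WT and 4 in KO, with no call between genotypes.

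Spleen has 2 samples a group and its WT libraries differ from each other more than other pairs, which limits every comparison with spleen. Depth is unknown, so levels near 1 RPKM, such as Eef1akmt4 and Eef2k, carry no counting error. Reads shared between near-copies or overlapping genes could not be assigned.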
